A study of Rattus norvegicus with 6 samples.

Results

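The genes described here are the solute carriers that move inorganic ions and metals across membranes, as measured in the 2 kinds of mural cell of the rat brain. They were taken by symbol from the families SLC4, SLC8, SLC9, SLC11, SLC12, SLC20, SLC24, SLC26, SLC30, SLC31, SLC34, SLC39, SLC40 and SLC41, with Slc4a1, the anion exchanger of erythrocytes, left out. This gave 69 of the 14607 listed genes. Of these, 66 were transporters and 3 were scaffold or adaptor proteins that carry a carrier's symbol (Slc9a3r1, Slc9a3r2 and Slc4a1ap).

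Solute carriers of these families exchange or cotransport ions down the gradients that pumps maintain. They set the resting calcium, pH and chloride of a cell, its volume, and its supply of phosphate, zinc, iron, copper and magnesium. In contractile cells, sodium-calcium exchangers extrude calcium after a contraction, and the chloride gradient set by cation-chloride cotransporters bears on membrane potential. Phosphate uptake by mural cells is linked to familial brain calcification, and manganese export is lost in an inherited parkinsonism with dystonia.

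RNA-Seq was carried out on 2 sorted populations, the smooth muscle cells of arterioles (VSMCs) and the pericytes of the mid-capillary bed (mcPCs). They came from the cerebral cortex of male Sprague-Dawley rats aged 4 to 5 weeks, with 3 samples per cell type, from isolations that each pooled several rats. Each isolation gave both fractions, and the replicate labels DN, DL and DK recur in both cell types, so the samples form pairs by isolation. VSMCs came from arterioles held back by a filter, which were digested further, cleared of endothelial and myeloid cells and picked with a lectin. mcPCs came from the filtrate and were never picked by a marker of their own: they are what was left after endothelial cells, myeloid cells, astrocytes and oligodendrocytes had been removed. A few ensheathing pericytes may be among the VSMCs, and pericytes of different shape were not separated. All animals were untreated, so the comparison is between 2 cell types and not between conditions. Cell type, vessel segment and way of isolation cannot be told apart in this design.

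The table held the authors' mean for each cell type and no value per sample, so the spread between isolations is unknown here and no difference below was tested. Each gene is given by its mean abundance as TPM (transcripts scaled to the same total in each sample), which corrects for transcript length and serves to compare genes within a cell type, and by its mean normalized count, which serves to compare the cell types. The log2 ratio is that of the mean normalized counts with a pseudocount of 1, mcPC over VSMC, and understates the difference for genes of very low count. The 95% interval (exact, Clopper-Pearson) is computed without the pseudocount and covers counting error only. For genes of very low count it is thus not centred on the ratio given. The mean depth was 61978061 reads per VSMC sample and 47990230 per mcPC sample. Counting error was thus small for most genes, but it leaves out any difference between isolations. In these bulk samples, fewer cells of a type and less RNA per cell cannot be told apart.

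The labels were checked against defining markers. All 5 smooth muscle markers were higher in VSMCs, by log2 ratios of -8.35 to -5.33, and all 4 pericyte markers were higher in mcPCs, by 3.50 to 7.32. Of the 4 pan-mural markers 2 lay within 2-fold, with Mcam past it in VSMCs (-1.11) and Pdgfrb in mcPCs (1.17, negative on the TPM scale). The mcPC samples also held other cells. Erythrocyte transcripts made up 54.9% of the summed TPM in mcPCs and 0.734% in VSMCs, which lowers the TPM of other genes in mcPCs. The median listed gene stood at 12.7 TPM in VSMCs and 3.59 TPM in mcPCs. On TPM the median log2 ratio of all listed genes was -1.72. With erythrocyte genes left out of the scaling it was still -0.63, and the source of this remainder was not tested. Because TPM ran lower in mcPCs for the median gene, the direction of a difference is taken from normalized counts. On these the median log2 ratio of all listed genes was 0.01.

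Most of these carriers lay within 2-fold between the cell types, as did 64.6% of all listed genes. A few differed widely in each direction. Some of those within 2-fold, such as Slc8a3 and Slc30a8, were barely detected in either cell type, so their ratios do not show shared expression. Of the 69 genes, 45 lay within 2-fold, 8 were more than 2-fold higher in VSMCs and 16 more than 2-fold higher in mcPCs. These are 11.6% and 23.2% of them, against 13.8% and 21.6% of all listed genes in the same directions, so in number the families did not stand apart from the rest of the transcriptome. Their median log2 ratio was 0.19. Past 4-fold, VSMCs had 4 such genes and mcPCs 11, while 5.64% and 12.0% of all listed genes passed that limit. The 183 other solute carrier genes in the table had a median log2 ratio of 0.55, with 18 of them (9.84%) past 2-fold in VSMCs and 60 (32.8%) in mcPCs.

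**Figure D1:**
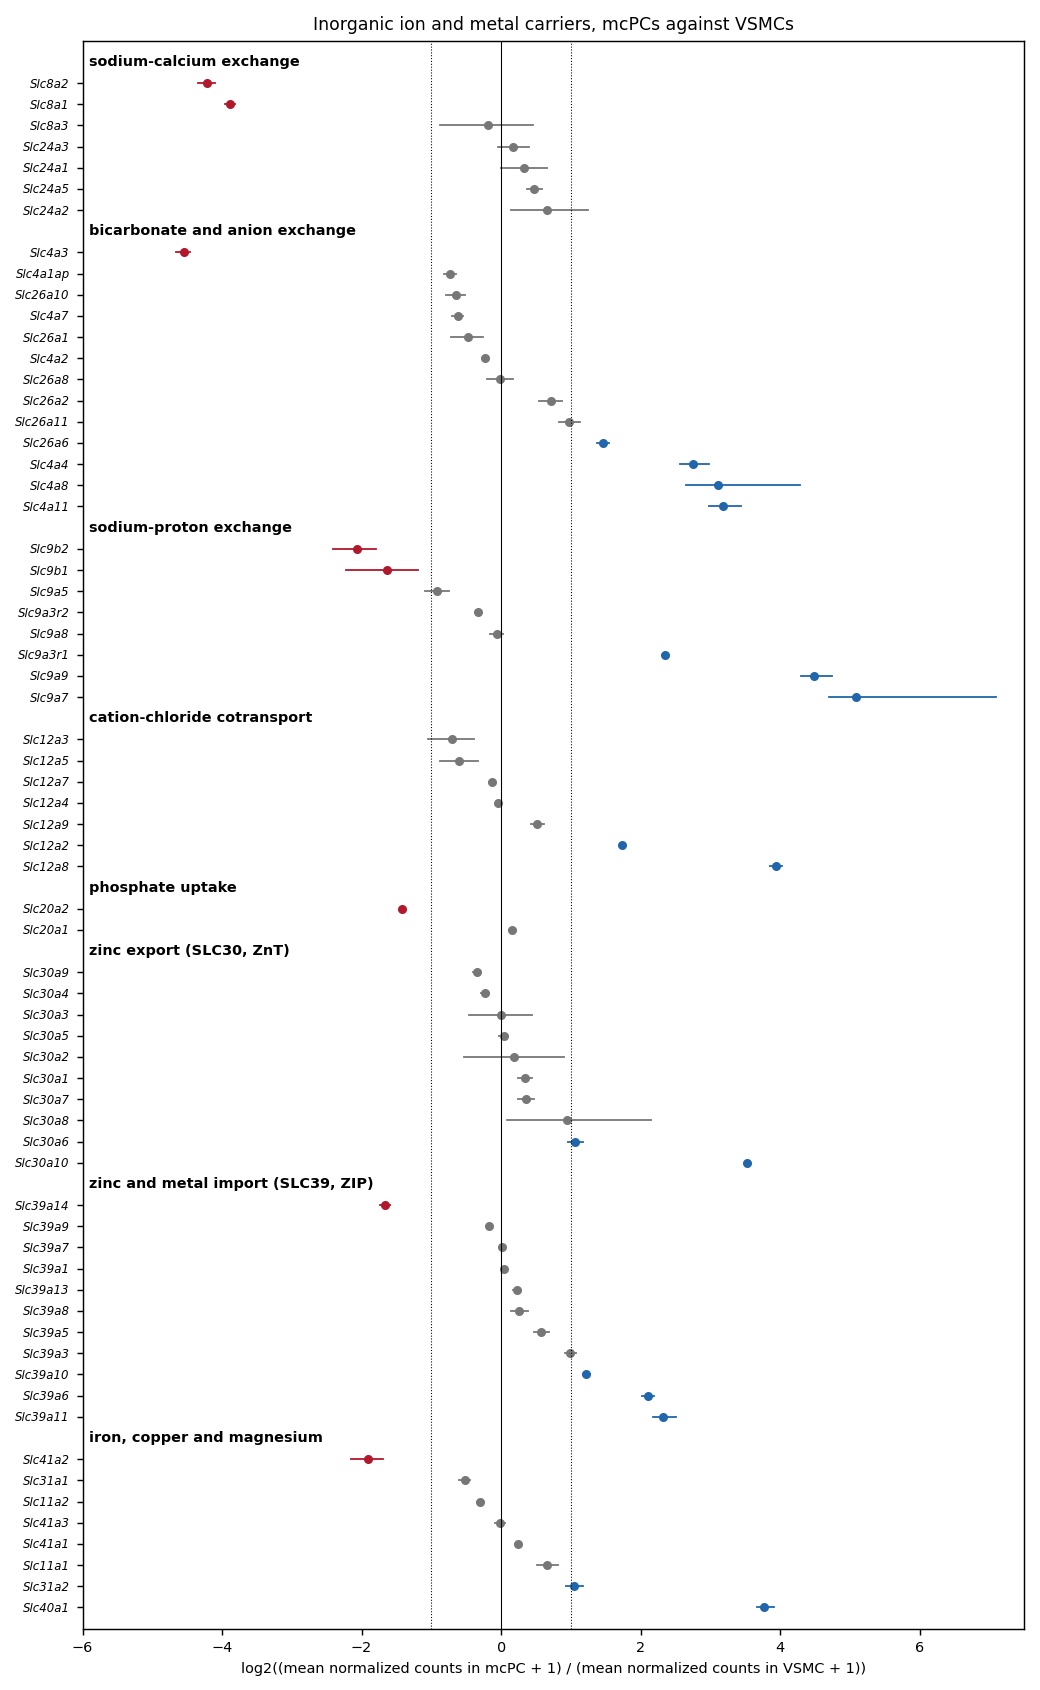
Each point is 1 of 66 of the 69 genes, placed by its log2 ratio of mean normalized counts (mcPC over VSMC, pseudocount of 1) and ordered within its transport group. Bars are 95% counting intervals, computed without the pseudocount, and do not hold the spread between isolations. Dotted lines mark 2-fold, and red and blue mark genes past it. The 3 points farthest to the left are Slc4a3, Slc8a2 and Slc8a1, between -4.55 and -3.88, and Slc9a7 lies farthest to the right at 5.09.

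The genes that differed most included some of the most abundant carriers. In VSMCs the highest transporter was Slc8a1 at 134.5 TPM, followed by Slc39a7 at 112.9, Slc12a4 at 108.8, Slc20a2 at 83.2, Slc39a1 at 78.8, Slc4a3 at 68.7 and Slc8a2 at 58.5 TPM. In mcPCs the order was another: Slc30a10 led at 96.0 TPM, ahead of Slc39a7 and Slc12a2 at 35.6 TPM each, Slc12a4 at 30.2, Slc39a1 at 22.6 and Slc12a8 at 17.5 TPM. Without values per isolation it is not known which neighbours in these orders differ beyond their spread. Levels spanned a wide range. In VSMCs 57 of the 69 genes reached 0.8 TPM and in mcPCs 53 did, and 9 stayed below it in both.

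**Figure D2:**
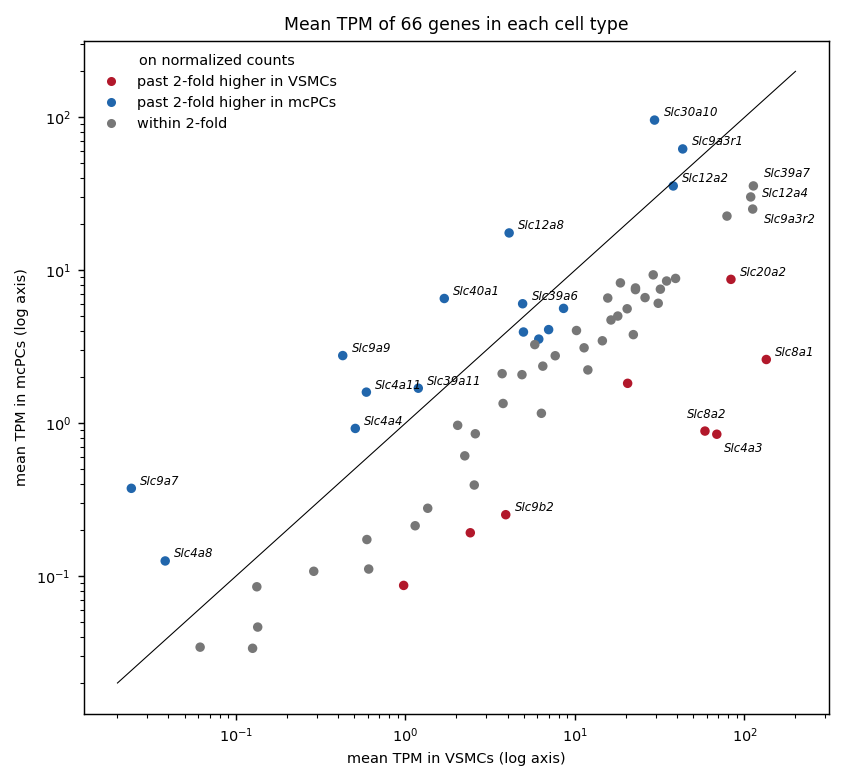
The mean TPM of 66 of the 69 genes is plotted in mcPCs against VSMCs on log axes, with the line of equal TPM. Most points lie below the line, and 11 of the 16 genes past 2-fold in mcPCs on normalized counts (blue) lie above it. Erythrocyte transcripts hold 54.9% of the TPM in mcPCs. With these genes left out of the scaling, the median log2 ratio of all listed genes on TPM is still negative (-0.63). Slc30a10 stands highest, at 96.0 TPM in mcPCs.

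Sodium-calcium exchangers were a large part of the carrier transcripts in VSMCs and a small part in mcPCs. The 7 genes of this group made up 16.6% of all transporter TPM in VSMCs and 2.0% in mcPCs. Slc8a1 (ENSRNOG00000008479) encodes NCX1, the main plasma membrane sodium-calcium exchanger of heart and smooth muscle. It averaged 10415 normalized counts in VSMCs and 705 in mcPCs (134.5 and 2.61 TPM), a log2 ratio of -3.88 (interval -3.96 to -3.81), that is 14.8-fold higher in VSMCs. Slc8a2 (ENSRNOG00000001492), which encodes NCX2, the exchanger best known from neurons, behaved alike, with 4792 and 257 normalized counts (58.5 and 0.888 TPM). Its log2 ratio was -4.21 (interval -4.34 to -4.10), or 18.5-fold.

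The mixture of exchangers was much alike in both cell types. Slc8a1 held 69.7% of the SLC8 TPM in VSMCs and 73.9% in mcPCs, and Slc8a2 held 30.3% and 25.2%. Slc8a3, the remaining exchanger, was barely detected in either cell type, at 0.125 and 0.0337 TPM, with a log2 ratio of -0.19 whose interval ran from -0.88 to 0.45. The potassium-dependent exchangers of the SLC24 family showed no difference of this size: all 4 lay within 2-fold, with log2 ratios from 0.17 to 0.66. Of these, Slc24a1 (0.288 and 0.108 TPM) and Slc24a2 (0.0615 and 0.0343 TPM) were barely detected. The interval of Slc24a2 ran from 0.14 to 1.24 and so reached past 2-fold. Slc24a5 (ENSRNOG00000005158), known for its role in pigment cells, was the highest SLC24 gene, at 10.2 TPM in VSMCs and 4.04 TPM in mcPCs. In mcPCs it was also the highest gene of the whole group. Its normalized counts were 422 and 586, a log2 ratio of 0.47 (interval 0.37 to 0.58), which turns negative on 3 of the 6 scales tried.

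Calcium also passes through mitochondria, and the genes for that route differed less. Of 5 such genes, Mcu, the pore of the mitochondrial calcium uniporter, was higher in VSMCs by a log2 ratio of -1.75. The other 4 stayed within 2-fold, among them Slc8b1, the mitochondrial sodium-calcium exchanger, at -0.15.

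Of the carriers of bicarbonate and other anions, 1 gene was past 2-fold in VSMCs, 4 in mcPCs and 8 within 2-fold. Slc4a3 (ENSRNOG00000020138) encodes AE3, a chloride-bicarbonate exchanger that loads cells with acid and is known from heart and brain. It had the largest difference towards VSMCs of all 69 genes, with 8785 normalized counts in VSMCs and 373 in mcPCs (68.7 and 0.847 TPM). The log2 ratio was -4.55 (interval -4.66 to -4.46), or 23.5-fold. Slc4a2 (ENSRNOG00000014347), which encodes the widespread exchanger AE2, was close to equal, at 3863 and 3295 normalized counts (34.7 and 8.51 TPM) and a log2 ratio of -0.23 (interval -0.27 to -0.19).

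The leading SLC4 gene was not the same in the 2 cell types. Slc4a3 held 59.0% of the SLC4 TPM in VSMCs and 5.95% in mcPCs, whereas Slc4a2 held 29.8% and 59.8%. Shares of this kind are read within 1 cell type and do not depend on how the 2 were scaled to each other. They do include transcripts of any other cells in the samples, whose part was not tested.

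The SLC4 genes that were higher in mcPCs were all low there. Slc4a11 (ENSRNOG00000021234), a transporter of the corneal endothelium, had 48.0 and 442 normalized counts (0.588 and 1.60 TPM), a log2 ratio of 3.18 (interval 2.98 to 3.43). Slc4a4 (ENSRNOG00000003134), the sodium-bicarbonate cotransporter NBCe1 that is abundant in astrocytes, had 56.5 and 387 normalized counts (0.506 and 0.924 TPM) and a log2 ratio of 2.75 (interval 2.57 to 2.98). Slc4a8 (ENSRNOG00000028879), a sodium-driven chloride-bicarbonate exchanger of neurons, had 3.69 and 39.5 normalized counts (0.0383 and 0.126 TPM) and a log2 ratio of 3.11 (interval 2.64 to 4.28). These 3 genes lay at or below 1.60 TPM in mcPCs, a range that also holds many markers of other cells: of the 10 neuron and glia markers listed, 6 stood above Slc4a4 in mcPCs and 9 above Slc4a8. The part of such cells in these results was not tested.

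Slc4a7, another sodium-bicarbonate cotransporter, had a log2 ratio of -0.63, and Slc4a1ap, an adaptor protein and not a carrier, of -0.73. In the SLC26 family of anion exchangers, 5 of 6 genes lay within 2-fold, from -0.65 for Slc26a10 to 0.97 for Slc26a11. Slc26a6, which exchanges chloride for oxalate and bicarbonate, was higher in mcPCs on normalized counts, at 1344 against 489 in VSMCs, a log2 ratio of 1.46, but lower on the TPM scale (3.95 against 4.97 TPM).

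The pH partners of these carriers included, in each direction, the largest difference among all partner genes. Of 12 listed genes, 2 were past 2-fold in VSMCs and 6 in mcPCs. Tesc, a calcium-binding partner of sodium-proton exchange, was at 293 TPM in VSMCs and 1.21 TPM in mcPCs, a log2 ratio of -6.16. Car4, the membrane-bound carbonic anhydrase known from brain capillaries, was at 37.3 and 109 TPM, with a log2 ratio of 3.39. Car2, a cytosolic carbonic anhydrase that erythrocytes hold in abundance, was at 4.73 and 174 TPM, with a log2 ratio of 7.07. Car12, Hvcn1 and Ezr were also past 4-fold in mcPCs, by 3.90, 3.92 and 2.70.

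Among the sodium-proton exchangers and their scaffolds, 2 genes were past 2-fold in VSMCs, 3 in mcPCs and 5 within it. A pair of exchangers of internal membranes was higher in mcPCs. Slc9a9 (ENSRNOG00000008554), which encodes the endosomal NHE9, had 40.2 normalized counts in VSMCs and 919 in mcPCs (0.427 and 2.77 TPM), a log2 ratio of 4.48 (interval 4.29 to 4.75). Its share of the SLC9 TPM was 0.870% in VSMCs and 15.7% in mcPCs. Slc9a7 (ENSRNOG00000004150), which encodes NHE7 of the trans-Golgi network, had the largest ratio towards mcPCs, 5.09 (interval 4.70 to 7.10), yet it was rare: 7 reads over all VSMC runs and 197 over all mcPC runs (0.0241 and 0.375 TPM). Slc9a8, a further exchanger of the Golgi, lay within 2-fold at -0.07.

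The SLC9B genes were higher in VSMCs. Slc9b2 (ENSRNOG00000023404), a sodium-proton antiporter of mitochondria and other organelles, had 199 and 46.7 normalized counts (3.91 and 0.252 TPM), a log2 ratio of -2.07 (interval -2.40 to -1.79). Its relative Slc9b1, best known from sperm, had 0.976 and 0.0870 TPM and a log2 ratio of -1.64. Slc9a5, a neuronal exchanger, fell just short of 2-fold at -0.92.

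Both scaffolds that anchor sodium-proton exchangers to the membrane skeleton were abundant, and they differed from each other. Slc9a3r1 (ENSRNOG00000003232), also called NHERF1, had 1607 and 8171 normalized counts (43.2 and 62.2 TPM), a log2 ratio of 2.35 (interval 2.31 to 2.39). Slc9a3r2, or NHERF2, was at 111.8 and 25.1 TPM, with a log2 ratio of -0.34. Ezrin, which binds NHERF1 and links it to actin, was likewise higher in mcPCs, while radixin (Rdx, -1.07) was higher in VSMCs and moesin (Msn, -0.43) within 2-fold. The carrier for which these scaffolds are named, Slc9a3, was not analysed here.

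**Figure D3:**
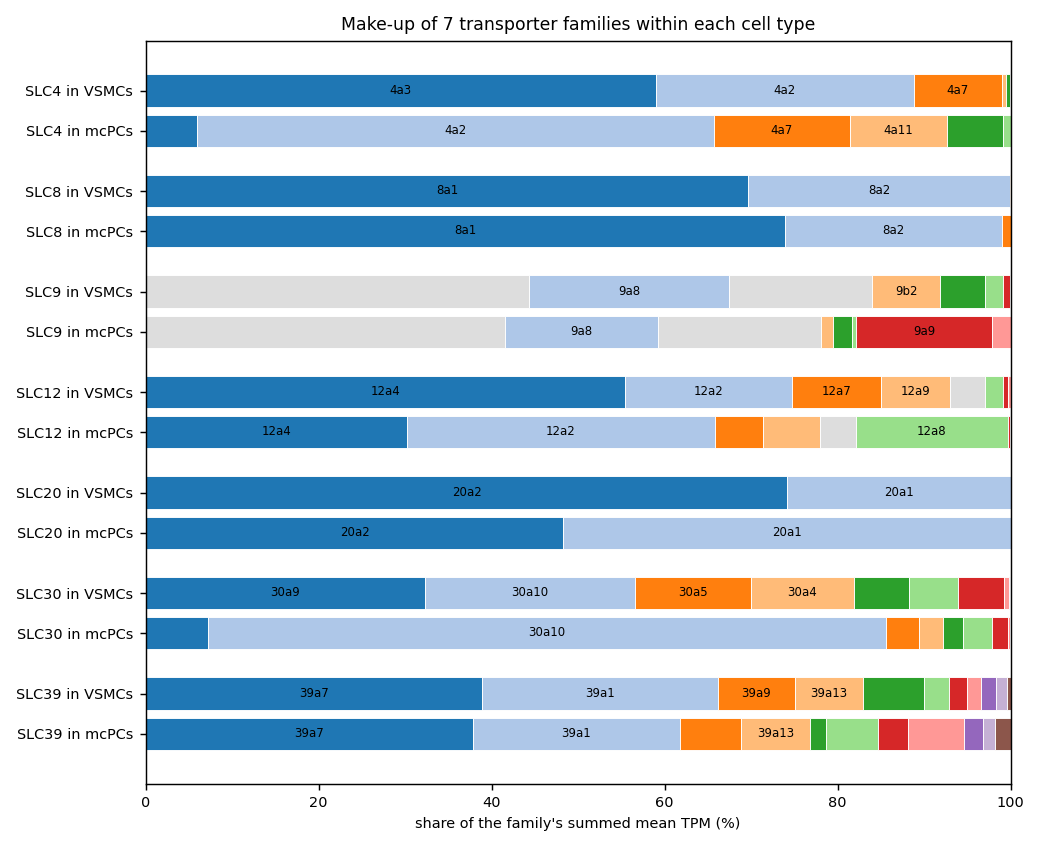
Bars give the share of each gene in the summed mean TPM of its family, in percent, for 7 families in VSMCs and mcPCs (gene names without the prefix Slc, scaffold proteins left out, segments in grey not described). The SLC8 bars are alike, while Slc4a3 holds 59.0% of SLC4 in VSMCs and 5.95% in mcPCs, Slc9a9 0.870% and 15.7% of SLC9, and Slc30a10 24.3% and 78.3% of SLC30.

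Cation-chloride cotransporters were well represented in both cell types, with 15.8% of all transporter TPM in VSMCs and 23.3% in mcPCs. Slc12a4 (ENSRNOG00000019651), which encodes the potassium-chloride cotransporter KCC1 that lets swollen cells lose salt, was equal on normalized counts at 11069 and 10764 (108.8 and 30.2 TPM), a log2 ratio of -0.04 (interval -0.06 to -0.02). Slc12a2 (ENSRNOG00000015971), which encodes NKCC1, the cotransporter that raises cell chloride, had 6806 and 22554 normalized counts. The log2 ratio was 1.73 (interval 1.71 to 1.75), or 3.31-fold higher in mcPCs, but on the TPM scale the values were 38.0 in VSMCs and 35.6 in mcPCs and the sign turned.

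Within the family, the shares of KCC1 and NKCC1 transcripts differed, and such shares do not depend on the scaling. Slc12a4 held 55.4% of the SLC12 TPM in VSMCs and 30.2% in mcPCs, and Slc12a2 held 19.3% and 35.6%. By mean TPM, the chloride loader NKCC1 was thus the highest SLC12 gene in mcPCs and the extruder KCC1 in VSMCs. In mcPCs these means lay close, at 35.6 and 30.2 TPM, and their spread between isolations is unknown. The shares also include transcripts of any other cells in the samples, whose part was not tested. Other potassium-chloride cotransporters, such as Slc12a7 (10.3% of the SLC12 TPM in VSMCs and 5.61% in mcPCs), add to the extruders. The balance of loading and extrusion was not tested.

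Slc12a8 (ENSRNOG00000001792), a distant member of the family whose substrate is debated, had 273 normalized counts in VSMCs and 4196 in mcPCs (4.09 and 17.5 TPM). The log2 ratio was 3.94 (interval 3.85 to 4.03), or 15.3-fold, and its share of the family was 2.08% in VSMCs and 17.6% in mcPCs. The 5 remaining genes lay within 2-fold, the lowest of them Slc12a3 at -0.70. Slc12a9, whose substrate is not settled, was at 0.52, negative on 3 of the 6 scales, and Slc12a7, the KCC4 gene, at -0.13. Slc12a5, the neuronal KCC2, stood at 1.14 and 0.213 TPM.

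Of the 10 kinases and adaptors that switch these cotransporters in response to cell volume and chloride, 2 were past 2-fold in VSMCs, 1 in mcPCs and 7 were within it. Oxsr1, a kinase that phosphorylates NKCC1, was at 63.7 and 5.31 TPM with a log2 ratio of -1.80, and its upstream kinase Wnk2 at -1.15. The related kinase Stk39 was at -0.30 and Wnk1 at -0.44. Klhl3, an adaptor for the breakdown of WNK kinases, was past 4-fold in mcPCs at 2.34, with 0.449 and 0.685 TPM.

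The phosphate uptake group held the 2 SLC20 genes, which encode the sodium-phosphate cotransporters PiT1 and PiT2. Slc20a2 (ENSRNOG00000019490), the PiT2 gene mutated in familial basal ganglia calcification, was 2.67-fold higher in VSMCs, with 8132 and 3047 normalized counts (83.2 and 8.72 TPM) and a log2 ratio of -1.42 (interval -1.45 to -1.38). Slc20a1 (ENSRNOG00000018567), the PiT1 gene, had 2416 and 2700.1 normalized counts (29.0 and 9.33 TPM) and a log2 ratio of 0.16 (interval 0.11 to 0.21), which turns negative on 3 of the 6 scales. PiT2 thus made up 74.2% of the family's TPM in VSMCs, whereas in mcPCs both genes were near parity with 48.3% for PiT2. No SLC34 gene entered the analysis.

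Other genes of phosphate handling and brain calcification lay on either side. Of 8 listed, Pdgfb was past 2-fold in VSMCs at -1.19, and Pdgfrb (1.17), Jam2 (1.18), Enpp1 (1.48) and Alpl (2.46) were past it in mcPCs. Among these 4, the first 3 turned negative on the TPM scale. Xpr1, the phosphate exporter, was within 2-fold at 0.49.

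A single gene held most of the zinc exporter transcripts in mcPCs. Slc30a10 (ENSRNOG00000002397) belongs to the zinc exporter family but is known to export manganese. It had 4789 normalized counts in VSMCs and 54878 in mcPCs (29.5 and 96.0 TPM), a log2 ratio of 3.52 (interval 3.50 to 3.54), or 11.5-fold. In mcPCs it stood above 97.5% of all listed genes and made up 22.4% of all the transporter TPM counted here, against 2.37% in VSMCs.

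Of the 10 SLC30 genes, 8 lay within 2-fold and none was past it in VSMCs. The highest in VSMCs was Slc30a9 (ENSRNOG00000002246), a mitochondrial zinc carrier, with 2395 and 1884 normalized counts (39.2 and 8.85 TPM) and a log2 ratio of -0.35 (interval -0.40 to -0.29). Slc30a1, the zinc exporter of the plasma membrane, had 449 and 571 normalized counts and a log2 ratio of 0.34. Slc30a6 of the Golgi was just past 2-fold in mcPCs at 1.06, with the sign turned on the TPM scale, and Slc30a8, of the insulin granule, was near the detection limit in both at 0.133 and 0.0852 TPM.

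Transcripts for the proteins that buffer zinc inside cells were higher in VSMCs. Metallothioneins bind zinc and copper through their cysteines and are induced by both. Mt1 was at 1990 TPM in VSMCs and 10.8 TPM in mcPCs (log2 ratio -5.76), Mt2A at 1299 and 5.34 TPM (-6.14) and Mt3 at 805 and 20.4 TPM (-3.48). All 3 metallothionein genes listed were past 4-fold in VSMCs, while Mtf1, the zinc-sensing transcription factor that induces them, was at -0.17. Mt1 and Mt2A are short, similar genes with related copies in the genome, so the division of reads between them is uncertain.

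The promoters of Mt1, Mt2A and a pair of zinc carriers are shown to set the metallothioneins beside carriers that lay within 2-fold. The metal response element, the sequence to which the zinc-sensing factor is known to bind, was searched as TGCACNC or TGCGCNC on both strands, where matches may overlap, in RefSeq windows of 300 bases (build GRCr8) that end shortly after each gene's start. Matches are in capitals. Mt1 (chr19:10832926-10833225, minus strand) had 6, Mt2A (chr19:10838659-10838958, minus strand) 4, Slc30a1 (chr13:106021769-106022068, plus strand), a known target of the same factor, 2, and Slc39a7 (chr20:4824809-4825108, plus strand) 4, the most of any carrier examined.
Mt1: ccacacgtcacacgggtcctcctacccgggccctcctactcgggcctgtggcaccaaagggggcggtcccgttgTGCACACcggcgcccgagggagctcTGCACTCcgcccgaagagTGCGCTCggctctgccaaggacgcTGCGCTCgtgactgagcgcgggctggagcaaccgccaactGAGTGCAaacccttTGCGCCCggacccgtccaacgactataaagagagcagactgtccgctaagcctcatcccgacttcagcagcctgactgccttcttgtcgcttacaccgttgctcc
Mt2A: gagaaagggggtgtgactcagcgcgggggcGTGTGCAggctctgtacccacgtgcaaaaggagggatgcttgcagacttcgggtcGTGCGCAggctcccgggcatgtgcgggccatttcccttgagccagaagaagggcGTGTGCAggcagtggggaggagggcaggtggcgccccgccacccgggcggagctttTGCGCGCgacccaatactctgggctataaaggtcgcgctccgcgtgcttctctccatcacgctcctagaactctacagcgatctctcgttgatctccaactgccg
Slc30a1: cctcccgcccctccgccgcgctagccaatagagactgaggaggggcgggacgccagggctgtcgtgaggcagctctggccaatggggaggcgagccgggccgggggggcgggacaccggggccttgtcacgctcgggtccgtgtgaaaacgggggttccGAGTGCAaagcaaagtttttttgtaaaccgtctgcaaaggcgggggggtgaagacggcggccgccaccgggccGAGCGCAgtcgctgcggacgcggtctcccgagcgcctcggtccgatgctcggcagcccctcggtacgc
Slc39a7: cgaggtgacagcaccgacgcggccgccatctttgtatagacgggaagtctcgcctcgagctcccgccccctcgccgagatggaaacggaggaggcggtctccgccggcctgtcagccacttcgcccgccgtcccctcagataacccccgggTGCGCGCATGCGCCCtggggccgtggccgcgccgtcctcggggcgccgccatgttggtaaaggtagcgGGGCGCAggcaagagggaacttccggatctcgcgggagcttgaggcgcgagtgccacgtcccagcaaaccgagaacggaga
A match is a run of letters and not a proven site. Of the 69 genes, 51 had a RefSeq promoter, and 19 of these (37.3%) held a match, beside 25.0% of all 27457 promoters. By direction these were 0 of 4 promoters of genes past 2-fold in VSMCs, 5 of 13 of those past it in mcPCs and 14 of 34 of the rest. The windows of Slc8a1 and Slc8a2, which are 2 of the 4, seem to begin near a coding exon and may not hold the promoter. Slc30a1 and Slc39a7 had matches, as the metallothioneins did, and lay within 2-fold. Slc39a11 and Slc9a7 had 2 matches each and were past 4-fold in mcPCs. Whether matches bear on any of these differences was not tested. The CArG box, the element through which serum response factor drives contractile genes, was found in 0 of the 51 windows and in 1.64% of all promoters, which says only that these letters were absent from these windows. The genes without an entry included Slc4a7, Slc4a11, Slc9b1, Slc9b2, Slc11a1, Slc20a1, Slc20a2, Slc24a5, Slc26a6, Slc26a11, Slc30a7, Slc30a8, Slc30a10, Slc39a14 and Slc41a1.

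The zinc importers formed the largest group by level in VSMCs, with 23.3% of all transporter TPM there and 22.0% in mcPCs. Its leading genes were close to equal on normalized counts. Slc39a7 (ENSRNOG00000000465), the ZIP7 transporter that releases zinc from the endoplasmic reticulum, had 4638 and 4659 normalized counts (112.9 and 35.6 TPM), a log2 ratio of 0.01 (interval -0.03 to 0.04). Slc39a1, a widespread zinc importer of the plasma membrane, was at 78.8 and 22.6 TPM with a log2 ratio of 0.04. Together with Slc39a9, Slc39a13, Slc39a8, Slc39a5 and Slc39a3 they made 7 of 11 genes within 2-fold, the last of them at 0.99, right below the limit.

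At the edges, Slc39a14 was higher in VSMCs and a pair of related importers in mcPCs. Slc39a14 encodes ZIP14, which takes up manganese, iron and zinc. It had 2673 and 842 normalized counts (20.5 and 1.82 TPM) and a log2 ratio of -1.67. Slc39a6 (ENSRNOG00000028703) encodes ZIP6, the closest relative and binding partner of ZIP10. It had 426 and 1834 normalized counts (4.91 and 6.04 TPM) and a log2 ratio of 2.10 (interval 2.03 to 2.19). Slc39a10, the ZIP10 gene, followed it at 1.22, with the sign turned on the TPM scale. Slc39a11 (ENSRNOG00000031213) had 103 and 521 normalized counts (1.19 and 1.69 TPM) and a log2 ratio of 2.33 (interval 2.17 to 2.50).

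Carriers known for manganese thus lay past 2-fold in both directions. The importer Slc39a14 was 3.17-fold higher in VSMCs and the exporter Slc30a10 was 11.5-fold higher in mcPCs. Another carrier of the same metal, Slc39a8, which encodes the importer ZIP8, had a log2 ratio of 0.26, at 3.77 and 1.35 TPM.

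Among the carriers of iron, copper and magnesium, 1 gene was past 2-fold in VSMCs, 2 in mcPCs and 5 within it. Slc40a1 (ENSRNOG00000003872) encodes ferroportin, the iron exporter of vertebrate cells, which macrophages and erythroid cells also make. It had 149 and 2044 normalized counts (1.69 and 6.54 TPM), a log2 ratio of 3.77 (interval 3.66 to 3.90), or 13.7-fold higher in mcPCs. The divalent metal importers did not differ by as much. Slc11a2 (ENSRNOG00000019550), the DMT1 gene, had 2572 and 2095 normalized counts (31.9 and 7.52 TPM) and a log2 ratio of -0.30 (interval -0.35 to -0.25). Slc11a1 (ENSRNOG00000014956), known from phagosomes of macrophages, had 194 and 307 normalized counts (18.5 and 8.27 TPM) and a log2 ratio of 0.66 (interval 0.51 to 0.81), and turned negative on 2 of the 6 scales. Its mean effective length was 359 bases in VSMCs and 378 in mcPCs, the shortest of the 69 genes, so the reads behind it come from a short stretch.

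Of 16 listed genes of iron handling, 6 were past 2-fold in mcPCs, 1 in VSMCs and 9 within it. Those past 4-fold in mcPCs were Ftl1, the ferritin light chain (709 and 1615 TPM, log2 ratio 3.05), Hmox1, the enzyme that frees iron from heme (8.44 and 18.2 TPM, 2.92), and Steap3, the iron reductase of erythroid cells (0.289 and 0.378 TPM, 2.14). In VSMCs it was Flvcr2, a relative of the heme exporter FLVCR1 (4.79 and 0.133 TPM, -3.20). Tfrc, the transferrin receptor, had 3262 and 3273 normalized counts. Several of these genes are also strong in erythroid cells or macrophages, whose markers differed in the same direction, as given below.

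The copper importer Slc31a1 had a log2 ratio of -0.52 and its intracellular relative Slc31a2 one of 1.05, the latter negative on the TPM scale. Of the 8 listed genes of copper handling, 7 lay within 2-fold and 1, Atp7b, was past it in mcPCs at 1.17, with 0.117 and 0.0798 TPM and thus the other sign on that scale. For magnesium, Slc41a2 was higher in VSMCs at -1.91, on low levels of 2.41 and 0.192 TPM, whereas the more abundant Slc41a1 (0.24) and Slc41a3 (-0.02) were nearly equal. Of the 11 listed genes of magnesium handling, Cnnm2 (61.7 and 3.71 TPM, -2.24) and Cnnm1 (-2.06) were past 4-fold in VSMCs. Tusc3 (1.02) and Trpm6 (1.28) were past 2-fold in mcPCs on normalized counts and lower there on the TPM scale, and the other 7 were within it.

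**Figure D4:**
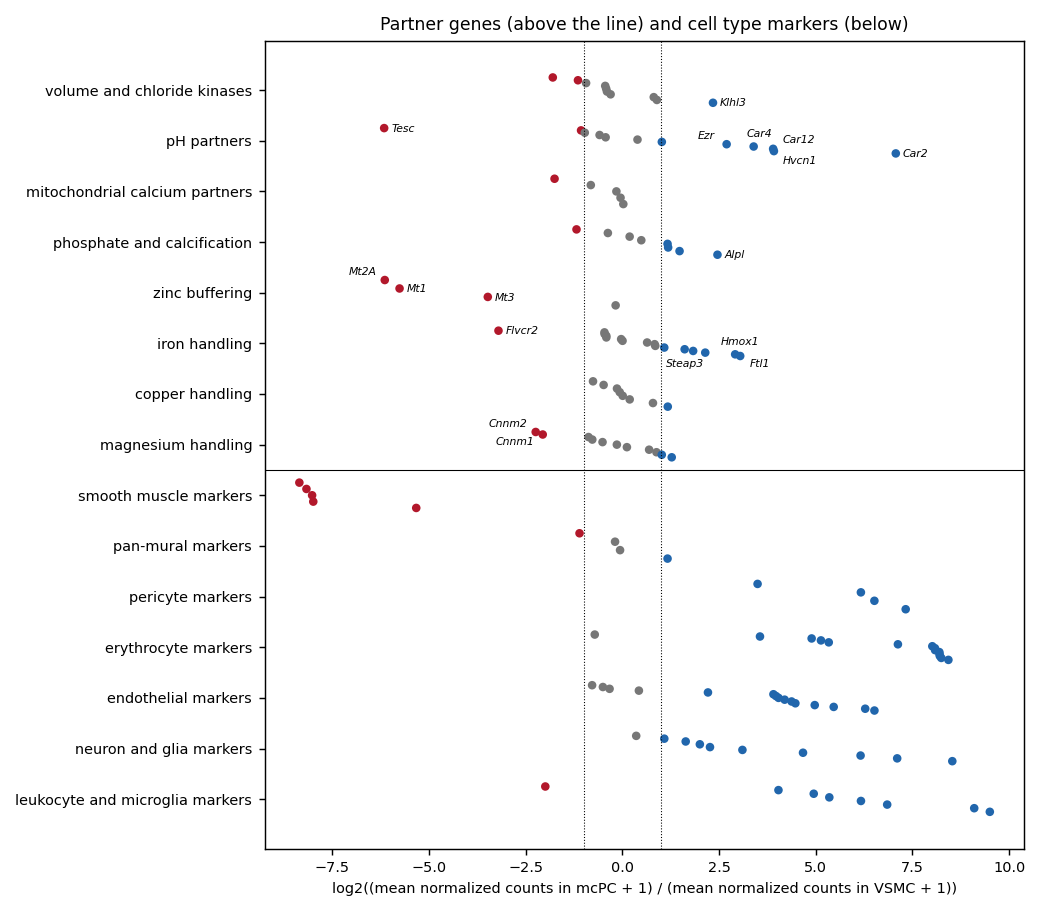
Each point is 1 gene of 8 partner lists (above the line) or 7 cell type marker lists (below it), placed by its log2 ratio of mean normalized counts, mcPC over VSMC, with dotted lines at 2-fold. Points are spread vertically for legibility. The metallothioneins and Tesc lie farthest to the left among the partners and Car2 farthest to the right, and the markers of erythrocytes, endothelium, neurons and glia, and leukocytes lie mostly on the mcPC side.

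Over all 8 lists, 74 of 84 partner genes were listed, of which 12 (16.2%) were past 2-fold in VSMCs, 20 (27.0%) in mcPCs and 42 (56.8%) within it, against 13.8%, 21.6% and 64.6% of all listed genes.

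Markers of other cell types were higher in the mcPC samples, beside the carriers that were higher there. Of the 14 listed erythrocyte markers 13 were past 2-fold in mcPCs, and their summed level was 7321 TPM in VSMCs against 547934 in mcPCs. The same held for 11 of 15 endothelial markers (696 and 343 TPM in sum, to which Esam gave 487 and 184), 9 of 10 neuron and glia markers (7.73 and 39.8 TPM) and 7 of 8 leukocyte and microglia markers (37.4 and 161 TPM). Each sum covers all listed markers of its type, also those not past 2-fold in mcPCs, and the endothelial sum was lower in mcPCs. Since the table keeps only genes read in every sample, no listed marker could be at 0. For 10 of the 24 erythrocyte, 3 of the 18 endothelial, 3 of the 13 neuron and glia and 2 of the 10 leukocyte and microglia markers chosen, no row was at hand, and their level is not known here. Cldn5, an endothelial defining gene, was at 0.643 and 15.4 TPM, and Ptprc, of leukocytes, at 0.0659 and 15.1 TPM.

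Most of the mcPC-high carriers had levels within the range of these markers. In mcPCs Slc40a1 at 6.54 TPM lay below all 14 erythrocyte markers, 7 of 15 endothelial markers and 2 of 8 leukocyte markers, and Slc9a9 at 2.77 TPM lay below 14, 7 and 4 of them. Slc30a10, at 96.0 TPM, exceeded all 10 neuron and glia markers and was exceeded by 1 endothelial marker, 1 leukocyte marker and 8 erythrocyte markers. Slc12a8 at 17.5 TPM exceeded all 10 neuron and glia markers too and was exceeded by 11 erythrocyte, 4 endothelial and 1 leukocyte marker. Slc4a1, the erythrocyte anion exchanger left out of the set, was itself at 1.25 TPM in VSMCs and 89.4 TPM in mcPCs. The part of these cells in the mcPC-high carriers was not tested.

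Some directions depended on how the 2 cell types were scaled to each other. On 6 scales, all 8 genes past 2-fold in VSMCs kept their sign, as did 11 of the 16 past it in mcPCs. The 5 others, Slc12a2, Slc26a6, Slc39a10, Slc30a6 and Slc31a2, were lower in mcPCs on the TPM scale as deposited and higher on the other 5. On that TPM scale the median of all listed genes shifted by -1.73, so a gene at 0 there stood well above the median gene.

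**Figure D5:**
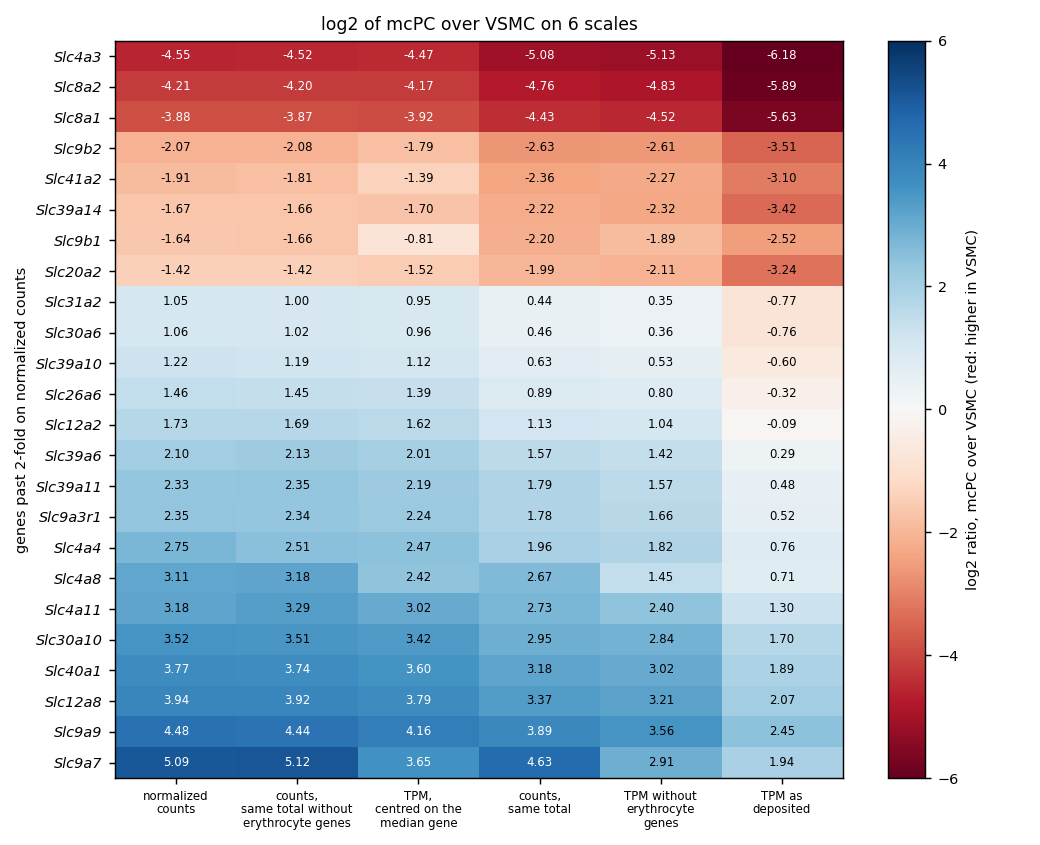
Rows are the 24 genes past 2-fold on normalized counts, columns are 6 ways of scaling the cell types to each other, and each cell gives the log2 ratio, mcPC over VSMC (red, higher in VSMCs; blue, higher in mcPCs). Slc4a3 lies between -6.18 and -4.47 and Slc12a8 between 2.07 and 3.94 across columns, while Slc12a2 is at 1.73 on normalized counts and at -0.09 on TPM as deposited.

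The deposited effective lengths gave a further readout, although the correction for length in TPM and normalized counts rests on them too. The effective length of a gene is the mean over its transcripts, weighted by their abundance, so it changes where the mixture of transcripts does. It was equal within 0.1% in 51 of the 69 genes and differed by more than 5% in 6 of them (8.70%), against 8.06% of all listed genes. The largest difference was in Slc39a7, at 1188 bases in VSMCs and 1562 in mcPCs. Its ratio of 1.31 was the only one above 1.3 in the set, a limit passed by 0.500% of all listed genes. Slc39a9 was at 3513 and 4009 bases. In the other direction Slc11a2, whose messages are known to come with and without an iron-responsive element, was at 2933 bases in VSMCs and 2605 in mcPCs, and Slc4a4 at 4143 and 3786. For Slc39a7 the level on normalized counts, which correct for this length, was thus equal between the cell types. The transcripts behind it were not the same mixture, as far as the estimates tell apart overlapping transcripts. On the other scales its log2 ratio ran from -1.66 on TPM as deposited to 0.515 on counts scaled without erythrocyte genes.

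For 19 further rat genes of these families, among them Slc4a5, Slc4a10, Slc12a1, Slc24a4, Slc39a12 and the 3 SLC34 genes, no row was at hand and they were not analysed here.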

How the data were processed

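Total RNA with poly(A) selection was sequenced as strand-specific single-end libraries, each over 4 runs. Per the methods, the authors filtered reads with Eoulsan, quantified transcripts with Salmon 0.8.0 (named with DESeq2 in the submitters' processing notes) on Ensembl cDNA of build Rnor_6.0, summed them to genes, and kept genes with at least 1 read in every sample. The deposited table gives the authors' means per cell type: TPM, estimated counts (here the mean of 12 runs, 69.8% of VSMC and 71.5% of mcPC values being whole multiples of 1 read over these runs within 0.01 reads), normalized counts (a signal corrected for depth and length by the authors) and effective length. It also holds the authors' own comparison (fold changes, standard errors and p-values), which was not used. The depth behind each value is 12 runs per cell type, and intervals cover counting error only, since reads carry no molecular identifiers.

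Ratios and exact intervals were computed with Python 3.11.15 and scipy 1.17.1, and the code was tested on simulated data. The planned count test could not be run on means. Genes past 4-fold and the highest of each transport group were named in full, and partner genes past 4-fold were named. Genes, lists and motifs were chosen with earlier results of these data known. Alternatives were other scales, pseudocounts of 0 and 10, filters at 0.8 TPM, and limits of 1.5-fold and 4-fold. Some further genes were given values after these had been seen. Values of 3 genes are not reported here, and these genes stay in the counts and sums.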

Additional observations from a re-analysis of the deposited data

How the results depend on the processing

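Both counts of genes past 2-fold and the median were recomputed on 5 other scales, with pseudocounts of 0 and 10, with 2 filters on low values and with other limits. The 8 genes past 2-fold in VSMCs became 44 on TPM as deposited, 16 on counts brought to 1 total, 18 on TPM without erythrocyte genes, 14 at a limit of 1.5-fold and 4 at 4-fold. The 16 past it in mcPCs became 6 on TPM as deposited, and stayed between 11 and 23 under the other alternatives. The median log2 ratio, 0.19, was negative on TPM as deposited (-1.49), on counts brought to 1 total (-0.34) and on TPM without erythrocyte genes (-0.43), on which scales the median of all listed genes was also negative (-1.72, -0.55 and -0.63). It was 0.037 among genes of at least 0.8 TPM in VSMCs. Among the 25 genes named in full, 1 that was past 2-fold changed sign, Slc12a2 on TPM as deposited (-0.094). No paired analysis was possible because the table holds means of each cell type and no value per isolation. For the same reason leaving out a replicate and the DESeq2 alternative were not run, the spread between isolations is unknown, and no rule for outlying samples could be applied. Depth limits the rarest genes, such as Slc9a7 with 7 reads over all VSMC runs.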
